A study of Mus musculus with 32 samples.

Results

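The regions described here are stretches of chromatin that were open in migratory type 1 dendritic cells (migDC1) and in hardly any library of the other dendritic cell (DC) subsets. Chromatin accessibility had been measured by Omni-ATAC-seq, which uses the Tn5 transposase to cut and tag open DNA, in DCs sorted from mouse skin-draining lymph nodes. The 28 floxed libraries came from mice with floxed Ifngr1, the gene of the ligand-binding chain of the interferon-γ receptor, and either had or lacked a CD11c-driven Cre. They comprised 2 Cre-positive and 2 Cre-negative migDC1 libraries, and 3 Cre-positive and 3 Cre-negative libraries each of migDC2, DN migDC, resident cDC1 and resident cDC2. A further 4 migDC2 libraries came from 2 germline IFNgr1-/- (KO) and 2 wild-type (WT) samples. The labels state neither age nor sex, nor whether replicates were separate animals, so p-values may measure technical spread. CD11c-driven Cre is known to act in DCs and in other CD11c-expressing cells. Whether the floxed gene was deleted cannot be read from peak lists. Each library was a list of peaks called by the authors on the mouse build mm10, with 32705 to 75106 peaks. A consensus region was a stretch of at least 100 bp on the autosomes under peaks from 3 or more of the 32 lists. A library called a region when it had a peak whose overlap made up 50% or more of the region's or the peak's own length. Members were called in at least 3 of the 4 migDC1 libraries and in at most 2 of the other 24 floxed libraries. This rule chose 1535 of 88757 regions, or 1.73%, while 53.6% of all regions were called in at least 3 of the 4 migDC1 libraries. The calls in the floxed libraries chose the members, so the contrast between migDC1 and the other subsets is a description and was not tested.

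Type 1 conventional DCs are known for taking up dead cells, presenting their antigens to CD8+ T cells and secreting interleukin-12. They depend on the transcription factors Irf8 and Batf3. Some live in the lymph node as resident cDC1, and others arrive from the skin through Ccr7 in a mature state as migDC1. Open regions away from promoters often hold enhancers, whose use differs between cell types more than that of promoters.

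Of the 1535 migDC1-only regions, 9 (0.586%) lay over a RefSeq promoter window, which reaches from 250 bases before to 50 bases after a transcript start, against 12.2% of all regions. They are the stretches where these regions meet an annotated start. Of the 9 windows, 4 are printed: the 3 that held a motif and whose member was called in 4 of 4 migDC1 libraries, and that of Tgtp1, which is on the list of interferon-induced genes. They are whole 300-base RefSeq windows of GRCm38.p6, the assembly of mm10, all read 5′ to 3′ on the strand of the gene. Capitals mark matches to any of 14 motifs that were searched on both strands.

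Vps13d: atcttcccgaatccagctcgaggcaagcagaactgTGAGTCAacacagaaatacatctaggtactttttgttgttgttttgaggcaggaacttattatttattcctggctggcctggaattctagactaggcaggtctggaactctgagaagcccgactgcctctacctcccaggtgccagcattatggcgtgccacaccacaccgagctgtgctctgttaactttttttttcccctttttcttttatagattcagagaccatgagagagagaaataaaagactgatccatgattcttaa
Tgtp1: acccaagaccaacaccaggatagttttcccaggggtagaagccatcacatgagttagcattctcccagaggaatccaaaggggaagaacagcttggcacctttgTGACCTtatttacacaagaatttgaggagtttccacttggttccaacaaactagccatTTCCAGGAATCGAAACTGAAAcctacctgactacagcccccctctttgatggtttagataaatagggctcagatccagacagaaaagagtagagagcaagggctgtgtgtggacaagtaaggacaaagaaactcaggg
Serpina3i: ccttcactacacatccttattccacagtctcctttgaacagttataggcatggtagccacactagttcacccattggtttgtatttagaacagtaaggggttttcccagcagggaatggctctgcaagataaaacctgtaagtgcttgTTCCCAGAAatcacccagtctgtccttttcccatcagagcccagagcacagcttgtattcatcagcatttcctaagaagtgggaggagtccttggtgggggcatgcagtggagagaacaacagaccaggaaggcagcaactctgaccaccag
Cd96: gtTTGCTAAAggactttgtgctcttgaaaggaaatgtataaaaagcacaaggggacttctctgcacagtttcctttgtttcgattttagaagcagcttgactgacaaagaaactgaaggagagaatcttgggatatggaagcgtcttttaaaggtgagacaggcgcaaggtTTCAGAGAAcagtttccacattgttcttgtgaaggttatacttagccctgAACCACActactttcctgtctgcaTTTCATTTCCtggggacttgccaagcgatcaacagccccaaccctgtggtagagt

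The Vps13d window (minus strand, chr4:145190617-145190916) belongs to a second start inside the gene of a lipid transfer protein. The member chr4:145190729-145191171 covered 188 of its bases, was called in 4 of 4 migDC1 libraries and in 0 of 24 others, and the window held 1 AP-1 motif (TGANTCA). Tgtp1 (minus strand, chr11:48992197-48992496) encodes an interferon-inducible GTPase. Its member covered 266 bases and was called in 3 of 4 migDC1 libraries and 0 of 24 others. The window held an interferon-stimulated response element (GAAANNGAAA), an ETS-IRF composite (GGAANNGAAA) and a STAT gamma-activated site (TTCNNNGAA), which overlap in 1 run of capitals, and an AGGTCA element. Tgtp1 has a near-identical paralog, so the origin of the reads there is uncertain. Serpina3i (plus strand, chr12:104262872-104263171), of a clustered family of protease inhibitors whose reads can likewise be confused, had 294 bases in its member and held 1 STAT site. Its member was called in 4 of 4 migDC1 libraries and in 1 other, DN migDC Cre-negative 2. Cd96 (minus strand, chr16:46120199-46120498), a receptor known from T and NK cells, lay wholly inside its member and held an ETS-IRF composite, a RUNX motif (TGTGGTT), a STAT site and a C/EBP motif (TTGCNNAA). Its member was called in 4 of 4 migDC1 libraries and in 2 others, DN migDC Cre-negative 2 and 3. Over 31396 full windows of the same length, 7.84% held the AP-1 motif, 3.46% the interferon-stimulated response element, 2.74% the ETS-IRF composite, 8.35% the STAT site, 5.32% the RUNX motif, 10.9% the C/EBP motif and 16.3% the AGGTCA element. The other motifs searched were those of PU.1 (GAGGAAGT), NF-kB (GGGANTTTCC), KLF (GGGTGTG), a CTCF core (AGGGGGC), an E-box (CAGCTG) and AP-1-IRF composites with adjacent (GAAATGANTCA) or spaced elements. None of these was in the 4 windows. A match is a run of letters and does not show that a factor binds. Of the windows not printed, those of Flacc1 and Gm13194 held none of the 14 motifs, and those of Pigr (STAT site), Prkag2 (AGGTCA element) and Gm20556 (CTCF core) held 1 each.

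Within migDC1, most members were seen in most libraries, and 1 library held far fewer. The libraries Cre-positive 1 and 2 called 1477 and 1427 members (96.2% and 93.0%), and the libraries Cre-negative 1 and 2 called 884 and 1518 (57.6% and 98.9%). Cre-negative 1 also had the shortest migDC1 list, with 45052 peaks, against 57727 to 60398 in the other 3. All 4 migDC1 libraries called 701 members, and 834 were called in exactly 3. Of those in exactly 3, 651 were missing in Cre-negative 1. Other subsets held few members, by the rule. DN migDC libraries called 14 to 90 members in Cre-positive and 16 to 223 in Cre-negative samples. The migDC2 libraries called 4 to 54 in Cre-positive and 22 to 184 in Cre-negative samples. Resident cDC1 libraries called 1 to 40 in Cre-positive and 30 to 42 in Cre-negative samples, and no cDC2 library called any. The 3 libraries DN migDC Cre-negative 2 and 3 and migDC2 Cre-negative 3 made 594 of the 1080 calls outside migDC1 (55.0%). In that order their lists held 60071, 71228 and 74361 peaks, against a median of 60621.5 over the floxed libraries outside migDC1. They called 53220, 63501 and 65530 regions of all kinds, against a median of 53850. The longest list, DN migDC Cre-positive 1 with 75106 peaks, called 90 members. The part of list length in these calls was not tested. The longest cDC1 list, Cre-positive 1, had 69670 peaks and called 40 members and 71.5% of all regions. The rule limits the members called in cDC1 whatever the length of the list. Of all members, 456 had a peak in at least 1 DN migDC library, 290 in at least 1 migDC2 library and 112 in at least 1 cDC1 library, while 788 had none outside migDC1.

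**Figure D1:**
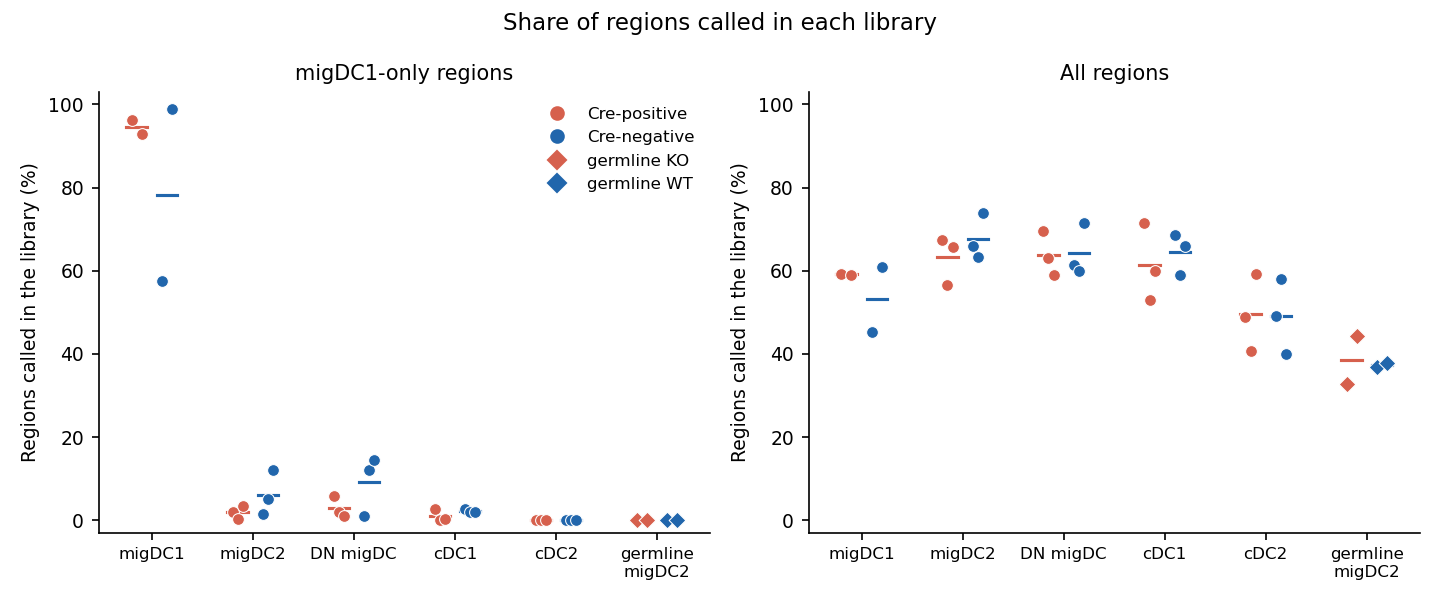
Share of the 1535 migDC1-only regions (left) and of all 88757 regions (right) that each library called, in percent, with 1 point per library and a line at each group's mean. In migDC1 the points lie between 57.6% and 98.9% on the left, while on the right migDC1 lies within the range of the other floxed subsets.

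The members were mostly weak peaks. The authors' signal was used only to rank the peaks of a list, and a percentile below is the share of that list's peaks that are no stronger. The median percentile of the members called was 24 and 22.4 in Cre-positive 1 and 2, and 16.3 and 25.7 in Cre-negative 1 and 2, while regions of all kinds had medians near the middle of each list, such as 52.3 in Cre-positive 1. Among members called in all 4 libraries, the lowest of the 4 percentiles had a median of 13.9, against 52.9 over all regions called in all 4. In 19 members every one of the 4 percentiles was 50 or more. Members were narrow, with a median width of 296 bp against 570 bp over all regions. Regions chosen by a similar rule for another subset (at least 5 of 6 own libraries, at most 2 others) were also narrow. Their median widths were 388.5 bp in migDC2, 347 bp in DN migDC, 398 bp in cDC1 and 439 bp in cDC2. In the same order, median percentiles per own library were 12.9 to 34.9, 15.7 to 31.7, 21.8 to 40.8 and 14.5 to 35.2. Weakness and narrowness were thus no mark of migDC1 alone. For 71 members (4.63%), the peak in at least 1 migDC1 library also called a neighbouring region, so its percentile is not the member's own. This was so for 0.910% of all regions called in at least 3 migDC1 libraries.

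**Figure D2:**
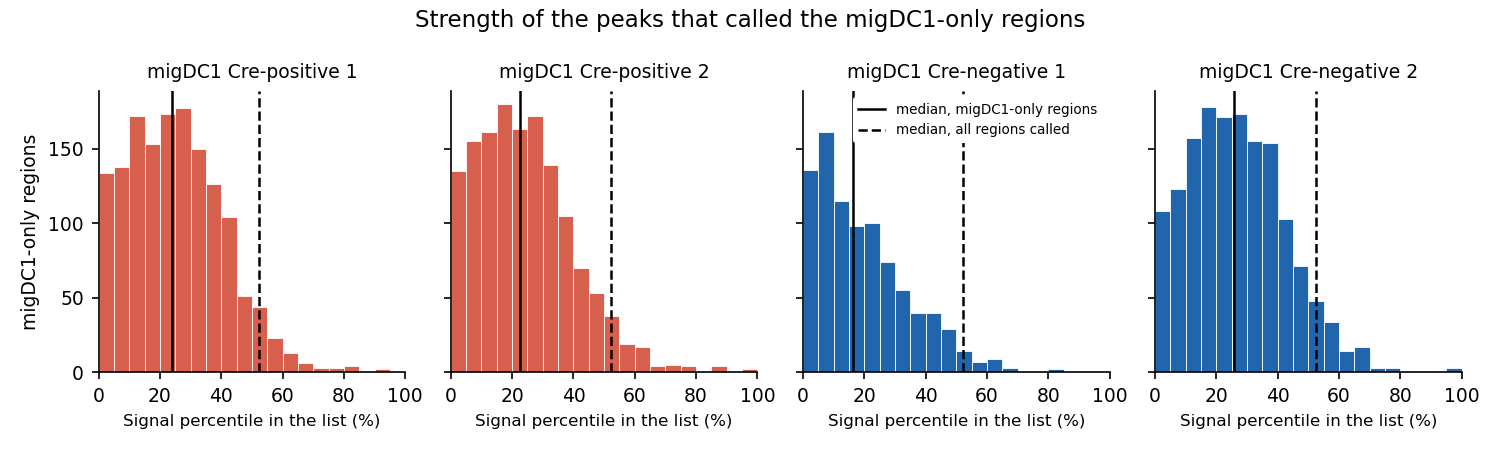
Histograms of the signal percentile (x axis, % of the list's peaks that are no stronger) of the peaks that called migDC1-only regions (y axis, number of regions) in each migDC1 library. The solid line is their median and the dashed line that of all regions the library called; the solid line lies between 16.3 and 25.7 and always left of the dashed line.

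The identity of the members depended on list length. When each floxed list was cut to its 37812 strongest autosomal peaks, as many as the shortest held, the rule chose 1678 regions (1.89% of all regions). Only 268 were in both sets, which is 17.5% of the members and 16.0% of the 1678. The other 1267 members were no longer called in 3 migDC1 libraries. The 1410 regions that entered had been called in a median of 9 other libraries with full lists. Of the 268 regions in both sets, 257 were called in 4 of 4 migDC1 libraries with full lists, 96 in none of the other 24, and their median width was 429.5 bp. They were assigned to 224 genes. Below, a member "chosen at both list lengths" is one of these 268. In all 32 lists cut to 32088 peaks, migDC1 libraries called 158 to 224 members, while migDC2, cDC1 and germline libraries called 0 or 1 and DN migDC and cDC2 libraries none. The same lists called 32.8% to 35.8% of all regions. Cutting a list can only remove calls, so the few calls in the other floxed subsets follow from the rule.

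Near the limits of the rule the regions graded into others. There were 355 regions called in at least 3 migDC1 libraries and in 3 others, and 423 called in 2 migDC1 libraries and in at most 2 others. In Cre-positive 1, the median percentile was 27.3 for members with 2 other libraries and 26.8 for the regions with 3. It was 17.3 for members called in exactly 3 migDC1 libraries and 11.9 for regions called in 2.

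Each library was then left out of the choice and looked up. Regions chosen by 3 of the 3 other migDC1 libraries were called in the library left out in 701 of 759 cases for Cre-positive 1 (92.4%) and 701 of 809 for Cre-positive 2 (86.7%). For Cre-negative 1 the count was 701 of 1352 (51.8%), and for Cre-negative 2 it was 701 of 718 (97.6%). Among regions called in all 3 other migDC1 libraries, whatever the rest, these shares were 99.2% and 98.7% for the Cre-positive libraries, and 83.6% and 99.7% for the Cre-negative ones. Regions chosen without another library were called in it in 1.1% to 20.9% of cases for migDC2, 2.25% to 23.2% for DN migDC, 0.130% to 5.68% for cDC1 and at most 0.130% for cDC2. The rule asked for calls in the other migDC1 libraries and for few calls elsewhere. High shares in migDC1 and low ones elsewhere therefore follow largely from the rule. Each migDC1 share lay below that of regions called in all 3 other migDC1 libraries.

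All migDC1 libraries have lettered titles, as do 4 migDC2 and 4 DN migDC libraries, while all resident libraries have plain numbered ones. What the title formats stand for is not stated. Between migDC1 and the resident subsets, subset and title format cannot be told apart. With the rule applied to the lettered libraries alone, 2943 regions qualified (3.32% of all regions), among them all 1535 members. Of the 2943, 842 (28.6%) were called in at least 5 of 6 cDC1 libraries, against 54.8% of all regions, and 25 (0.849%) in at least 5 of 6 cDC2 libraries, against 41.5% of all regions. Single cDC1 libraries called 27.6% to 38.2% of these regions and 53.0% to 71.5% of all regions. Single cDC2 libraries called 0.680% to 5.91% of these and 39.9% to 59.2% of all regions.

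The study asked how interferon-γ receptor signalling bears on DC chromatin. Genotype did not enter the rule, but the calls compared here are those that chose the members, so the floxed genotypes are described and not tested. Cre-positive migDC1 libraries called 94.6% ± 2.30 of the members and Cre-negative ones 78.2% ± 29.2 (SD, n = 2 each). The difference of 16.4 percentage points was smaller than the SD of the Cre-negative pair. Over all regions the difference was 6.0 points. Without Cre-negative 1 it was -4.30 points, and with lists of equal length -0.805. Of the members, 668 were called in both Cre-positive libraries and 1 Cre-negative one, and 166 in 1 Cre-positive and both Cre-negative libraries. Among members in exactly 3 libraries, 80.1% lacked a Cre-negative call, while over all such regions it was 90.5%.

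In migDC2, DN migDC and cDC1 the Cre-positive libraries had lower mean shares of members called. DN migDC called 2.89% ± 2.62 in Cre-positive and 9.25% ± 7.20 in Cre-negative libraries (SD, n = 3 each). The migDC2 libraries called 1.93% ± 1.63 in Cre-positive and 6.17% ± 5.36 in Cre-negative samples (SD, n = 3 each). In cDC1 the shares were 0.977% ± 1.41 in Cre-positive and 2.24% ± 0.434 in Cre-negative libraries (SD, n = 3 each). The lowest and highest libraries of the 2 genotypes overlapped in migDC2, DN migDC and cDC1. The direction differed by title format in DN migDC and migDC2, where plain titles leave 1 library per genotype. Plain-titled libraries called 90 members in DN migDC Cre-positive 1 and 16 in Cre-negative 1, and 31 and 22 in the like migDC2 libraries. Lettered DN migDC libraries called 29 and 14 in Cre-positive 2 and 3, and 187 and 223 in Cre-negative 2 and 3. For lettered migDC2 these counts were 4 and 54, and 78 and 184. Over all regions the Cre-positive libraries differed by -0.453 points in DN migDC, -4.50 in migDC2 and -3.03 in cDC1. The germline libraries, which did not enter the choice beyond the consensus, called almost no member. They are migDC2, however, a subset in which the rule allows few calls. Their lists were also short, with 32705 to 42499 peaks, against 45052 in the shortest migDC1 list. With so few calls, the comparison of KO and WT cannot speak to genotype. One KO library called 1, and the other KO library and both WT libraries called 0 (0.0326% in KO against 0% in WT, n = 2 each, two-sided exact permutation p = 1.0, where 2 against 2 cannot go below 0.333), although 45.9% of all regions were called in at least 1 of these 4. The 1 region was chr12:55475122-55475994, distal to Nfkbia, which encodes the NF-κB inhibitor IκBα. It was also called in migDC2 Cre-positive 3 and migDC2 Cre-negative 1.

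The members lay away from gene ends. RefSeq gene ends here include both starts and 3′ ends of protein-coding genes. Within 1 kb of a gene end lay 64 members (4.17%), against 17.2% of all regions. Gene bodies held 846 members (55.1% against 46.5%), 448 were distal, within 50 kb of a gene end (29.2% against 26.9%), and 177 had no gene in reach (11.5% against 9.44%). Inside gene bodies the median distance to the nearer end was 21302 bp for members and 16022 bp for all regions. A low share at gene ends was no mark of migDC1 alone. By the like rule, with at least 5 of 6 own libraries and at most 2 others, 4.78% of 858 migDC2-only, 5.46% of 183 DN migDC-only, 4.94% of 5142 cDC1-only and 6.32% of 348 cDC2-only regions lay there. Regions called in all 28 floxed libraries did so in 42.2% of cases. Across chromosomes the members made up 1.02% (chromosome 7) to 2.34% (chromosome 14) of the regions.

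**Figure D3:**
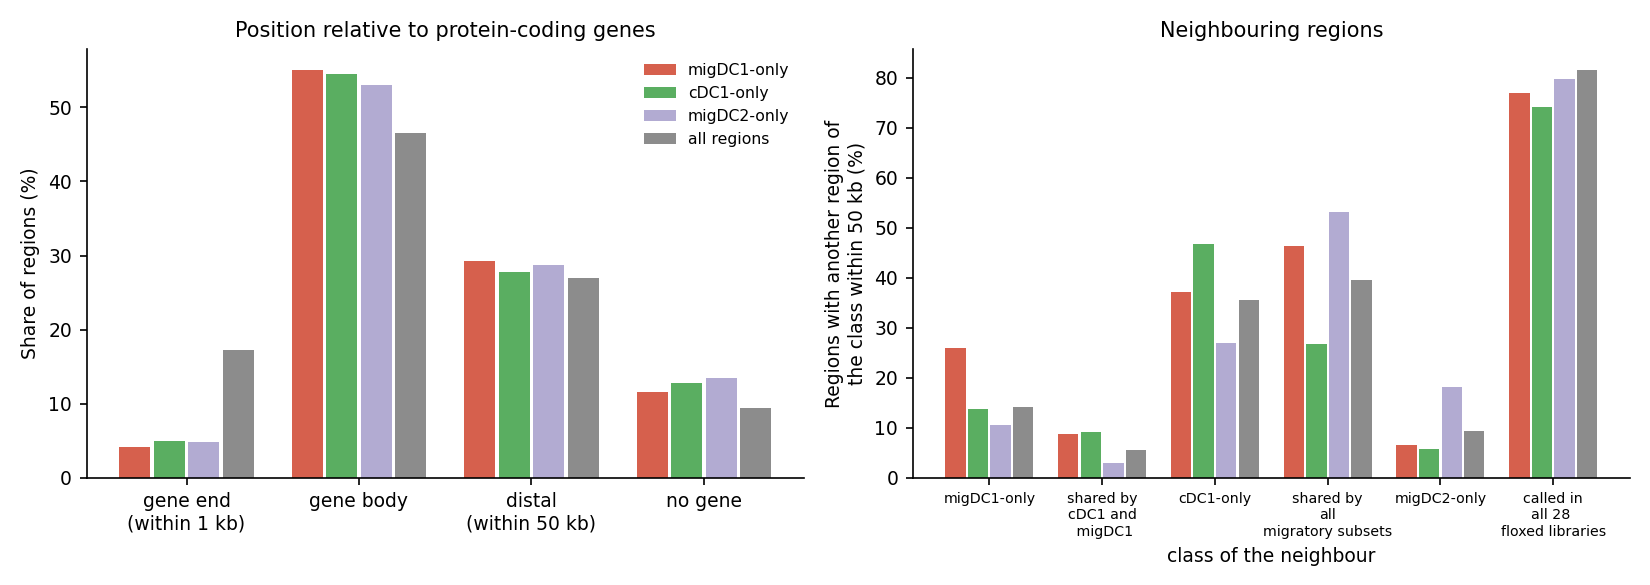
Left, share of migDC1-only, cDC1-only, migDC2-only and all regions (y axis, %) by position relative to protein-coding genes. Right, share of the same 4 kinds of region with another region of each class (x axis) within 50 kb (y axis, %): 26.0% of migDC1-only regions had another migDC1-only region near them, against 14.1% of all regions.

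The members were found near one another. Within 50 kb, 26.0% of members had another member, against 14.1% of all regions, and within 10 kb the shares were 10.7% and 3.69%. Some of these pairs, as at Rxra and Runx2, were called by the same broad peak in some libraries and count as neighbours here. A peak shared with another region was commoner among members (4.63%) than among all regions called in at least 3 migDC1 libraries (0.910%). The other subset-only classes also lay near their own kind: 46.8% of cDC1-only regions had another cDC1-only region within 50 kb, against 35.5% of all regions, and 18.1% of migDC2-only regions had another migDC2-only region, against 9.33%. Regions shared by cDC1 and migDC1 lay within 50 kb of 8.79% of the members, 9.08% of cDC1-only regions, 2.91% of migDC2-only regions and 5.53% of all regions. Regions shared by all migratory subsets lay within reach of 46.4% of members, 53.1% of migDC2-only regions, 26.8% of cDC1-only regions and 39.5% of all regions. A larger share of members than of all regions thus had a neighbour of either kind. Chained at 50 kb, the members formed 1314 stretches, of which 1136 held 1 member, 145 held 2, 24 held 3 and 8 held 4. The stretch with 5 lay at Il12b.

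Il12b encodes the p40 subunit shared by interleukin-12 and interleukin-23, through which mature DCs are known to instruct T cells. Of its 18 regions, 5 were members, all between chr11:44353194 and chr11:44416408, with the gene on the plus strand at chr11:44400063-44414677. The region over the gene start, chr11:44398474-44400327, was called in all 32 libraries. The farthest upstream member, chr11:44353194-44353542, had percentiles of 41.8 and 17.4 in Cre-positive 1 and 2, and 20.3 and 33.9 in Cre-negative 1 and 2. The next, chr11:44378741-44379275, had 34.4 and 78.3 in Cre-positive 1 and 2, and 32.9 and 37.7 in Cre-negative 1 and 2, where the 78.3 came from a broad peak that also called its neighbour. Another lay just inside the gene, chr11:44401752-44402278, with 44.6 and 43.2 in Cre-positive 1 and 2, and 29.8 and 39.6 in Cre-negative 1 and 2. These 3 were each called in 2 further libraries: DN migDC Cre-positive 1 called all of them, DN migDC Cre-negative 3 the first and the third, and migDC2 Cre-positive 3 the second. The fourth, chr11:44409909-44410137, was called in none of the 24, with 35.0 and 24.4 in Cre-positive 1 and 2, and 20.9 and 25.2 in Cre-negative 1 and 2. The fifth, chr11:44416114-44416408, was called in 3 migDC1 libraries and likewise in none of the 24. In 2 of the 3 the call came only through a broad neighbouring peak. The second and the third were chosen at both list lengths.

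The rest of the locus shows the pattern of each subset around these members. The region chr11:44381768-44383040 was the strongest there, with percentiles of 96.7 and 96.5 in Cre-positive 1 and 2, and 95.7 and 96.1 in Cre-negative 1 and 2, and was also called in 6 of 6 migDC2, DN migDC and cDC1 libraries. A region at chr11:44389910-44390626 was called in all migratory floxed libraries and in no resident one. At chr11:44356117-44356817 the calls were in 3 of 4 migDC1 and 6 of 6 cDC1 libraries, with 1 in migDC2 and 2 in DN migDC.

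**Figure D4:**
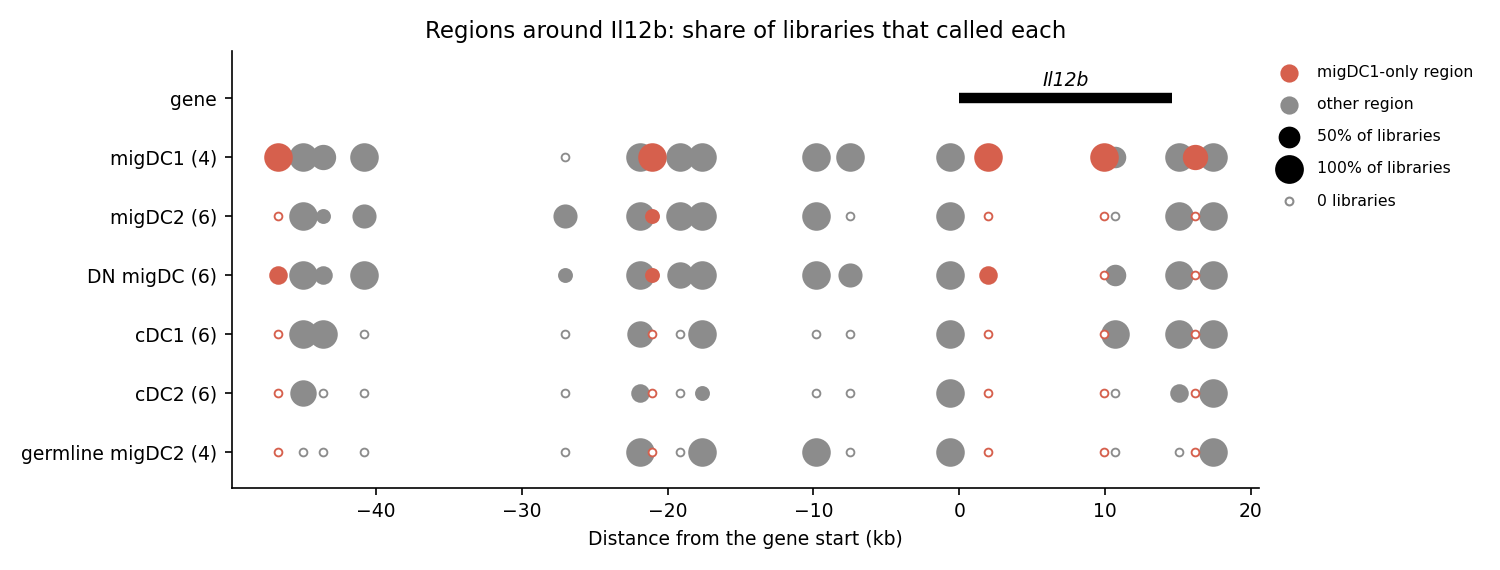
The 18 regions assigned to Il12b by distance from the gene start (x axis, kb), with a row for each subset (number of libraries in brackets) and circles whose area grows with the share of libraries that called the region; open circles are 0 libraries. The 5 migDC1-only regions are red, and the one 10 kb inside the gene has open circles in every row but migDC1.

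Among members called in all 4 migDC1 libraries and in no other, the one whose lowest percentile was highest lay distal to Ppp2r3d, a regulatory subunit gene of protein phosphatase 2A, at chr9:124464635-124465204. Its percentiles were 69.5 and 63.0 in Cre-positive 1 and 2, and 61.3 and 70.6 in Cre-negative 1 and 2. Next by the lowest of the 4 percentiles was chr6:127050662-127051258, distal to Fgf23, a hormone of phosphate balance, with 53.1 and 51.6 in Cre-positive 1 and 2, and 57.1 and 58.5 in Cre-negative 1 and 2. A region in the tubulin-modifying enzyme gene Ttll4 (chr1:74686166-74686727) had 65.2 and 63.3 in Cre-positive 1 and 2, and 55.3 and 51.5 in Cre-negative 1 and 2. All 3 were called in every migDC1 library and in no other, and were chosen at both list lengths. Slc1a3, a glutamate transporter, followed with chr15:8668616-8669087, at 60.2 and 51.0 in Cre-positive 1 and 2, and 48.2 and 64.7 in Cre-negative 1 and 2. The last of the lowest percentiles among the 10 leading such regions was 45.4, and the others were at Gm38469, Mylk, Vps13d, Ccdc171, Clspn and Banp. Each gene named is the nearest or enclosing one, and no target of the region is implied.

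The 1358 members with a gene belonged to 1108 genes, of 15644 genes with any region. Of these, 928 had 1 member and 133 had 2. Lrba, whose product is known to keep CTLA-4 from degradation in T cells, had 6 of 28 regions. Its leading member, chr3:86285665-86286051, had 48.2 and 41.5 in Cre-positive 1 and 2, and 14.7 and 45.0 in Cre-negative 1 and 2. This member was also called in DN migDC Cre-positive 1. In the same gene, chr3:86743115 begins a region called in 4 of 4 migDC1 and 5 of 6 cDC1 libraries and in no migDC2, DN migDC or cDC2 library, which lies between members.

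Camk1d, a calcium- and calmodulin-dependent kinase, had 5 of 53 regions, and its member chr2:5484288-5484655 had 37.0 and 42.3 in Cre-positive 1 and 2, and 40.4 and 42.8 in Cre-negative 1 and 2. This member was also called in cDC1 Cre-positive 1 and cDC1 Cre-negative 1. Fam120a, an RNA-binding scaffold protein, had 4 of 17 within chr13:48910798-48944989, a stretch of 6 regions. The strongest, chr13:48934766-48935554, had 63.1 and 64.1 in Cre-positive 1 and 2, and 64.7 and 66.8 in Cre-negative 1 and 2, and 1 other library called it, migDC2 Cre-negative 3. Ncoa7, a nuclear receptor coactivator, had 4 of 26, of which 3 were chosen at both list lengths. Its member chr10:30636767-30637206 had 44.0 and 52.7 in Cre-positive 1 and 2, and 43.0 and 59.3 in Cre-negative 1 and 2. This member was also called in DN migDC Cre-negative 3. Ttc28 (4 of 26), the formin Daam1 (4 of 27), Aff3 (4 of 29) and the transporter gene Slc22a23 (4 of 30) also had 4 members each. None of the members of Daam1, Aff3 or Slc22a23 was chosen at both list lengths.

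Genes that mark type 1 DCs were used to check the label, counting the regions called in at least 3 in 4 libraries of a subset. Over 8 cDC1 markers with 170 regions, 87 were so called in migDC1, 63 in migDC2, 61 in DN migDC, 112 in cDC1 and 41 in cDC2. Over 5 markers of migratory DCs with 64 regions the counts were 38 in migDC1, 51 in migDC2, 47 in DN migDC, 23 in cDC1 and 22 in cDC2. Over 5 cDC2 markers with 74 regions they were 28 in migDC1, 47 in migDC2, 37 in DN migDC, 33 in cDC1 and 29 in cDC2. By these sums migDC1 lay between resident cDC1 and the other migratory subsets for the first 2 lists, and lowest for the cDC2 markers. Over all regions, 53.6% were so called in migDC1, 54.8% in cDC1 and 41.5% in cDC2. At the cDC1 markers migDC1 thus lay below its own share over all regions, as cDC2 did at the cDC2 markers. The sums are therefore a weak check of the label. The genes within a list differed. Cadm1, an adhesion molecule of cDC1, had 21 of its 36 regions called in migDC1, 8 in migDC2, 8 in DN migDC, 24 in cDC1 and 7 in cDC2. For Wdfy4, which cDC1 need for cross-presentation, the counts of 57 regions were 15 in migDC1, 8 in migDC2, 9 in DN migDC, 43 in cDC1 and 5 in cDC2. Xcr1 and Clec9a, which define cDC1, hardly separated the subsets, with 5 and 2 regions called in migDC1, 4 and 2 in migDC2, 4 and 2 in DN migDC, 6 and 3 in cDC1 and 4 and 3 in cDC2. Among the maturation genes Ccl22 had 7 of 10 regions called in migDC1, 9 in migDC2 and 2 in cDC1, while Cd40 had 5 of 14 in migDC1, 11 in migDC2 and 2 in cDC1. The genes Xcr1, Clec9a, Irf8, Batf3, Itgae, Wdfy4, Ccr7, Cd274, Cd207 and Ifngr1 had no member. In that order they had 6, 4, 33, 16, 12, 57, 13, 13, 6 and 16 regions. Since 1.73% of all regions were members, few would fall at these genes at that share.

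Of 430 regions at 31 listed cDC1 genes, 16 were members (3.72%, against 1.73% of all regions), and 7 of the 16 were chosen at both list lengths. Laptm4b, a lysosomal membrane protein, had 3 of 10, and each was called in 4 of 4 migDC1 libraries and chosen at both list lengths. The first, chr15:34222067-34222751, had 65.3 and 53.4 in Cre-positive 1 and 2, and 46.2 and 59.9 in Cre-negative 1 and 2. The second, chr15:34223408-34224027, had 50 and 61.2 in Cre-positive 1 and 2, and 55.9 and 61.6 in Cre-negative 1 and 2. Both were also called in DN migDC Cre-negative 2, and the first in DN migDC Cre-negative 1 as well. The third, chr15:34266784-34267117, was also called in migDC2 Cre-negative 2 and 3. Fgd6, an exchange factor for Cdc42, had 3 of 17, and chr10:94117525-94117867 had 41.9 and 39.4 in Cre-positive 1 and 2, and 24 and 33.2 in Cre-negative 1 and 2, with no other call. Cadm1 had 3 of 36. Its member chr9:47550183-47550451 had 42.0 and 23.2 in Cre-positive 1 and 2, and 32.3 and 40.6 in Cre-negative 1 and 2, with no other call. The other 2 Cadm1 members were also called in cDC1, 1 of them in a single library and 1 in 2 libraries. Ly75 (DEC-205, an endocytic receptor) and Zfp366 (DC-SCRIPT) had 2 members each, and Naaa, Cd24a and Dkk3 had 1. At 23 listed cDC2 genes, 2 of 223 regions were members (0.897%), 1 each at Irf4 and Notch2, and neither was chosen at both list lengths.

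**Figure D5:**
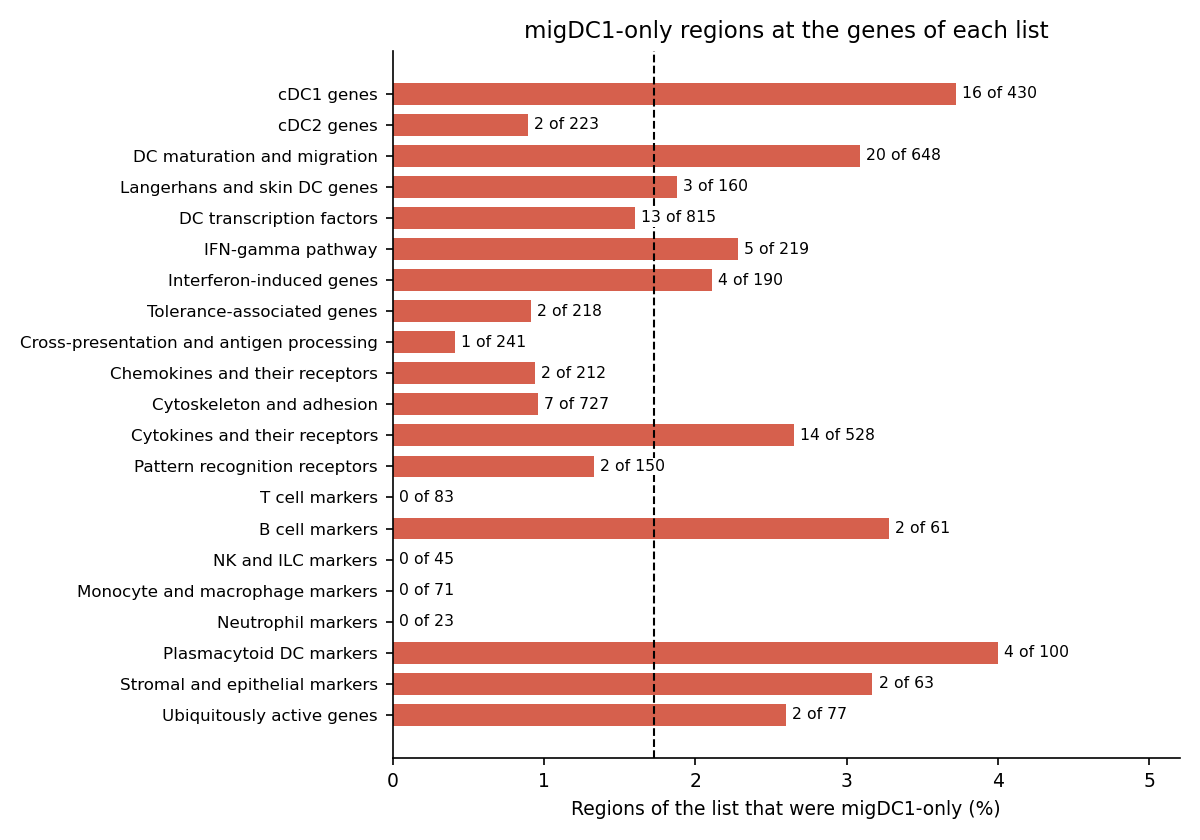
Share of the regions of each gene list that were migDC1-only (x axis, %), with the number of members and of regions beside each bar; the dashed line is the 1.73% over all regions. The lists of plasmacytoid DC (4 of 100) and cDC1 genes (16 of 430) reach furthest, and 5 lists have no member or 1.

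At the genes of DC maturation and migration, 20 of 648 regions were members (3.09%), 5 of them at Il12b, and 5 of the 648 (0.772%) stayed when no other library was allowed, a setting that leaves 0.888% of all regions. Spred1, a Ras pathway inhibitor, Stat4, a transducer of interleukin-12 signals, Nfkb1, Mreg and Rabgap1l had 2 each. Cytokine and receptor genes held 14 of 528 (2.65%), and outside Il12b these were 1 each at 9 genes. Among them were Il10, which encodes an inhibitory cytokine, Il15ra, which presents interleukin-15, Il27, and Tnfsf9, the ligand of 4-1BB. The Tnfsf9 member was called in no other library, with 30.7 and 24.4 in Cre-positive 1 and 2, and 9.85 and 30.5 in Cre-negative 1 and 2. The Il27 member was called in cDC1 Cre-positive 1 and cDC1 Cre-negative 1 as well.

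Transcription factor genes of DCs held 13 of 815 (1.60%), close to the share of all regions. Rxra, the retinoid X receptor, had 3 of 19, 2 of which were called by the same broad peak in 2 libraries. Runx2 had 3 of 48, and 2 of these likewise shared a peak in 2 libraries. Rora had 2 of 18. Batf, an AP-1 factor, had 1 member, chr12:85717813-85718291, called in no other library, with 39.0 and 32.2 in Cre-positive 1 and 2, and 3.67 and 38.2 in Cre-negative 1 and 2. Cytoskeleton and adhesion genes held 7 of 727 (0.963%), of which Dock2, a Rac activator of leukocyte migration, had 2. Its member chr11:34303018-34303543 was among the strongest, with 76.0 and 72.6 in Cre-positive 1 and 2, and 64.9 and 71.9 in Cre-negative 1 and 2, and was also called in DN migDC Cre-negative 2 and 3.

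Genes of the interferon-γ pathway held 5 of 219 (2.28%), none chosen at both list lengths. Ptpn2, a phosphatase that damps JAK-STAT signals, and Jak2, a kinase of the receptor, had 2 each, and the transcription factor Irf1 had 1. The Irf1 member, chr11:53804389-53804733, had 4.90 and 12.8 in Cre-positive 1 and 2, and 38.3 in Cre-negative 2, and was not called in Cre-negative 1. Interferon-induced genes held 4 of 190 (2.11%), 1 each at Gbp9, Ifit2, Tgtp1 and Oasl2. The Gbp9 member, chr5:105112304-105112839, had 53.7 and 33.6 in Cre-positive 1 and 2, and 52.9 and 67.2 in Cre-negative 1 and 2, and was the one chosen at both list lengths. This member was also called in migDC2 Cre-negative 2 and DN migDC Cre-negative 2. Gbp9 lies among similar genes of its family, so reads there may be shared with paralogs. The values of the 2 genotypes overlapped at Gbp9.

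The remaining lists held few. Langerhans and skin DC genes had 3 of 160 (1.88%), tolerance-associated genes 2 of 218 (0.917%, Il10 and Itgb8), chemokines and their receptors 2 of 212 (0.943%, Ccl6 and Cxcr5), pattern recognition receptors 2 of 150 (1.33%, Tlr1 and Tlr6) and antigen processing genes 1 of 241 (0.415%, H2-DMa). Among markers of other cell types, T cell genes had 0 of 83 regions, NK and ILC genes 0 of 45, monocyte and macrophage genes 0 of 71 and neutrophil genes 0 of 23. B cell genes had 2 of 61 (3.28%, Cr2 and Pax5), stromal and epithelial genes 2 of 63 (3.17%, Pdgfra and Vim) and ubiquitously active genes 2 of 77 (2.60%, Rab7 and Ywhaz). The 4 of 100 at plasmacytoid DC markers (4.0%) were the 3 at Runx2 and 1 at Cox6a2. The small lists of ubiquitously active and B cell genes thus also lay above the 1.73% of all regions.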

How the data were processed

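The authors deposited 1 peak list per library, 32 in all, with no pooling of replicates. Per the submitters' processing notes the tools were Bowtie2, deepTools and Genrich and the build was mm10. Order, versions, settings and any shift of read ends for the transposase were not given in the sources used here. Peak signal as deposited by the authors starts at about 200 in every list and served for ranks inside each list alone. The deposited −log10 p only ordered peaks of equal signal. No read counts are held in the lists, so depth is unknown, no interval or floor is given, and a region not called may be closed or lie under the threshold of that list.

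From the lists, consensus regions, calls and members were computed with Python 3.11.15, numpy 2.4.6 and pandas 2.3.3, by the rule the report opens with. The steps were checked on simulated lists. A region was assigned to the protein-coding gene with an end within 1000 bp, else to the gene body holding its midpoint, else to the nearest gene end within 50000 bp, in the RefSeq table of GRCm38.p6, which gives no strand. Of 471 gene entries on 21 lists, 460 matched an autosomal gene. The X chromosome was not used. Shares per library were compared between germline genotypes with an exact permutation test over libraries. For the floxed libraries no p is given, since their calls chose the members. Regions are not replicates, so positions, neighbours and lists have no p.

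Genes named were the 10 strongest members with a gene called in 4 of 4 migDC1 and 0 of 24 other libraries (by the lowest percentile), the 10 genes with most members (1 of which is not reported here), up to 4 genes for each list, and 11 marker genes. Other genes that are named, among them Nfkbia, the genes with promoter windows and further list genes, were chosen after their values were seen. The members and lists were chosen with earlier results of these data known. Promoter sequences are RefSeq's (GRCm38.p6). Other sequences were not read.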

Additional observations from a re-analysis of the deposited data

Results flagged for a closer look

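The number of members called in migDC1 Cre-negative 1, 884, lay far below those of the other 3 migDC1 libraries, with a gap of 0.856 of the group's range. Its list was also the shortest of the 4. With lists cut to equal length, 86.5% of the regions chosen without it were called in it, against 51.8% with full lists. The number in migDC2 germline KO 2, which was 1, stood apart from the 0 in the other 3 germline libraries, with a gap of 1.0 of the range. For values that do not tie and did not enter a choice, such a gap is passed by chance in about 1 of 20 groups. Here 6 groups were checked. The migDC1 counts rest on the calls that chose the members, and 3 of the germline counts tie at 0. The rate therefore holds for neither, and both flags are descriptions.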

How the results depend on the processing

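The number of members was 1678 with lists of equal length, 1093 with peaks of at least 2 times the lowest signal, 1534 with any overlap, 1652 with a peak over 50% of the region, 1470 with regions of 200 bp or more and 1495 with a consensus of 2 lists. It was 788 with 0 of the other 24 libraries allowed and 2943 within lettered titles. The identity of the members moved more than their number: 268 of the 1535 were kept at equal length and 355 at the stricter signal. Without 1 migDC1 library the number was 718 to 1352 (759 without Cre-positive 1, 809 without Cre-positive 2 and 718 without Cre-negative 2), since 3 of 3 calls were then asked for, and without 1 other library 1535 to 1709. The Cre difference in migDC1 turned to -0.805 points at equal length and to -4.30 without Cre-negative 1, and was 14.7 to 37.0 points without each other library. Under the other 4 settings it was 16.1 to 22.1 points. The cause of the turn at equal length was not tested. The germline difference was 0 to 2.0 points under every setting. The share at gene ends was 5.42% at equal length, 3.43% with 0 of 24 and 5.03% within lettered titles. The share of cDC1 gene regions was 9.53% within lettered titles, where 3.32% of all regions qualify, and that of maturation gene regions 0.772% with 0 of 24, where 0.888% do. At equal length, a setting chosen after seeing the data, the shares called in the library left out were 89.8% for Cre-positive 1, 85.1% for Cre-positive 2, 86.5% for Cre-negative 1 and 90.2% for Cre-negative 2. The members chosen at both list lengths, all 32 lists cut to 32088 peaks, and the genotype comparisons in the other floxed subsets were also added after seeing the data. Motif searches over the members, and their alternatives, were not run, since no genome was used here. No paired analysis was possible because the genotype groups compared within a subset share no title number.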
